A study of Rattus norvegicus with 6 samples.

Results

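Wnt signalling was described through 52 genes chosen by name: 12 Wnt ligands, 10 frizzled receptors, 5 co-receptors or alternative receptors, 9 secreted antagonists, 3 genes of ligand maturation and receptor turnover, and 13 intracellular genes. Of these, 51 were found by symbol among the 22573 gene rows used, and Axin1 is not analysed here. Expression was measured by RNA sequencing in cells of the nucleus pulposus, the soft core of the intervertebral disc, taken from Sprague Dawley rats. The strain group held 3 libraries of cells under cyclic tensile strain on a Flexcell tension system (18% elongation, 0.2 Hz, 24 h), and the control group held 3 libraries classed as control. The same treatment text stands on every sample, so the controls are taken as unstretched from their class label alone. The labels do not tell whether replicates were separate animals or cultures, and the p-values therefore measure a spread between libraries that may be technical only.

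Wnt ligands are lipid-modified secreted proteins that bind frizzled receptors. With the co-receptors LRP5 and LRP6 they keep beta-catenin from the destruction complex of APC and axin, and beta-catenin then acts with TCF and LEF factors on target genes. Other ligands, with Wnt5a as the best studied, signal through ROR2, RYK and the planar polarity proteins without beta-catenin. In the disc, Wnt signalling is known from work on notochord and nucleus pulposus maintenance and on matrix breakdown.

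Levels are given in FPKM, fragments scaled to transcript length and library size, so levels of different genes can be set side by side per length. Summed FPKM was 309497 to 348238 in strain libraries and 332716 to 347117 in control libraries, and read depth is unknown. Strain replicate 3 was separated from strain replicates 1 and 2 by the second principal component of all tested genes (17.5 against -9.7 and -10.8). Among the markers of the labelled cell type, the notochord factor gene T was at 0.0994 to 0.101 FPKM in strain libraries and 0.0485 to 0.119 FPKM in control libraries, Krt18 and Krt19 were under 0.14 FPKM in each library, and Shh was listed at 0. The keratin gene Krt8 was at 6.86 to 11.3 FPKM under strain and 2.85 to 5.403 FPKM in controls, Cd24 at 3.57 to 4.48 FPKM under strain and 4.43 to 5.68 FPKM in controls, and Acan at 35.1 to 41.2 FPKM under strain and 24.2 to 43.3 FPKM in controls. Of the 15 nucleus pulposus markers 9 were tested, and 7 rose: Krt8, Car3, Pax1, Foxf1, Sox9, Ncam1 and Lgals3. Over all tested genes 16.4% rose and 19.0% fell. Col2a1 was not tested, at 0.445 to 1.41 FPKM under strain and 0.0104 to 0.0682 FPKM in controls. Limma without a filter called it higher (adjusted p = 0.016). The summed level of all 15 was 213 to 273 FPKM under strain and 99.8 to 122 FPKM in controls, to which Lgals3 gave 110 to 165 FPKM under strain and 41.2 to 43.6 FPKM in controls. Of 8 annulus and fibroblast markers, 7 were tested. Of these, 4 rose (Col1a1, Col3a1, Scx and Mkx), Thy1 fell, and Col1a2 and Pdgfra were not called, while Tnmd was listed at 0 in each library. The summed level of the 8 was 5342 to 6634 FPKM under strain and 2287 to 2831 FPKM in controls. To this Col1a1 gave 4519 to 5575 FPKM under strain and 1680 to 2166 FPKM in controls. Col1a2 was at 67.0 to 77.4 FPKM under strain and 76.6 to 103 FPKM in controls. The 7 macrophage and leukocyte markers summed to 2.08 to 2.23 FPKM under strain and 3.21 to 7.77 FPKM in controls, with Adgre1 and Cd68 lower under strain, Cd163 listed at 0 and Ptprc at or under 0.0486 FPKM. The 7 endothelial markers summed to 0.919 to 1.08 FPKM under strain and 1.36 to 1.91 FPKM in controls, with Cdh5 at 0; none was tested, and limma without a filter called Flt1 lower (0.465 to 0.497 FPKM under strain and 1.16 to 1.58 FPKM in controls) and Pecam1 and Erg higher. The 6 neural and Schwann markers summed to 38.3 to 48.2 FPKM under strain and 30.4 to 32.6 FPKM in controls, with S100b and Tubb3 higher and Sox10 at or under 0.056 FPKM. The 5 skeletal muscle markers summed to 1.46 to 4.24 FPKM under strain and 1.64 to 4.09 FPKM in controls, with Ckm and Myh4 at 0, and the 4 blood cell markers were listed at 0 in each library. The part of these shifts in the Wnt results was not tested, and in bulk RNA more cells of a type and more RNA per cell cannot be told apart.

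Strain was accompanied by a lower level of the leading ligand Wnt5a and higher levels of the leading receptors, and of the antagonists Frzb and Dkk3. Of the 51 members in the files, 29 averaged at least 1 FPKM over the 6 libraries and were tested, 19 lay under that level and 3 (Fzd10, Sfrp5 and Dkk1) were listed at 0 in each library. Among the tested members 11 rose and 5 fell (limma, Benjamini-Hochberg adjusted p under 0.05 over all tested genes). Over all 10180 tested genes 35.4% were called, 16.4% higher and 19.0% lower. The median log2 fold change, strain minus control on the log2(FPKM + 1) scale, was 0.17 for the 29 members and -0.01 for all tested genes. The groups did not overlap for 18 of the 29 (strain above in 12, below in 6), and for 51.9% of all tested genes (24.0% above, 28.0% below). Without control replicate 1 the members called higher numbered 7, with 5 lower, and 2375 genes were called in all, against 3608 with all 6 libraries. Rescaling libraries to the same summed FPKM turned the balance over all genes, with 57.2% of calls higher against 46.3% as deposited, and left the members at 12 higher and 5 lower.

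**Figure D1:**
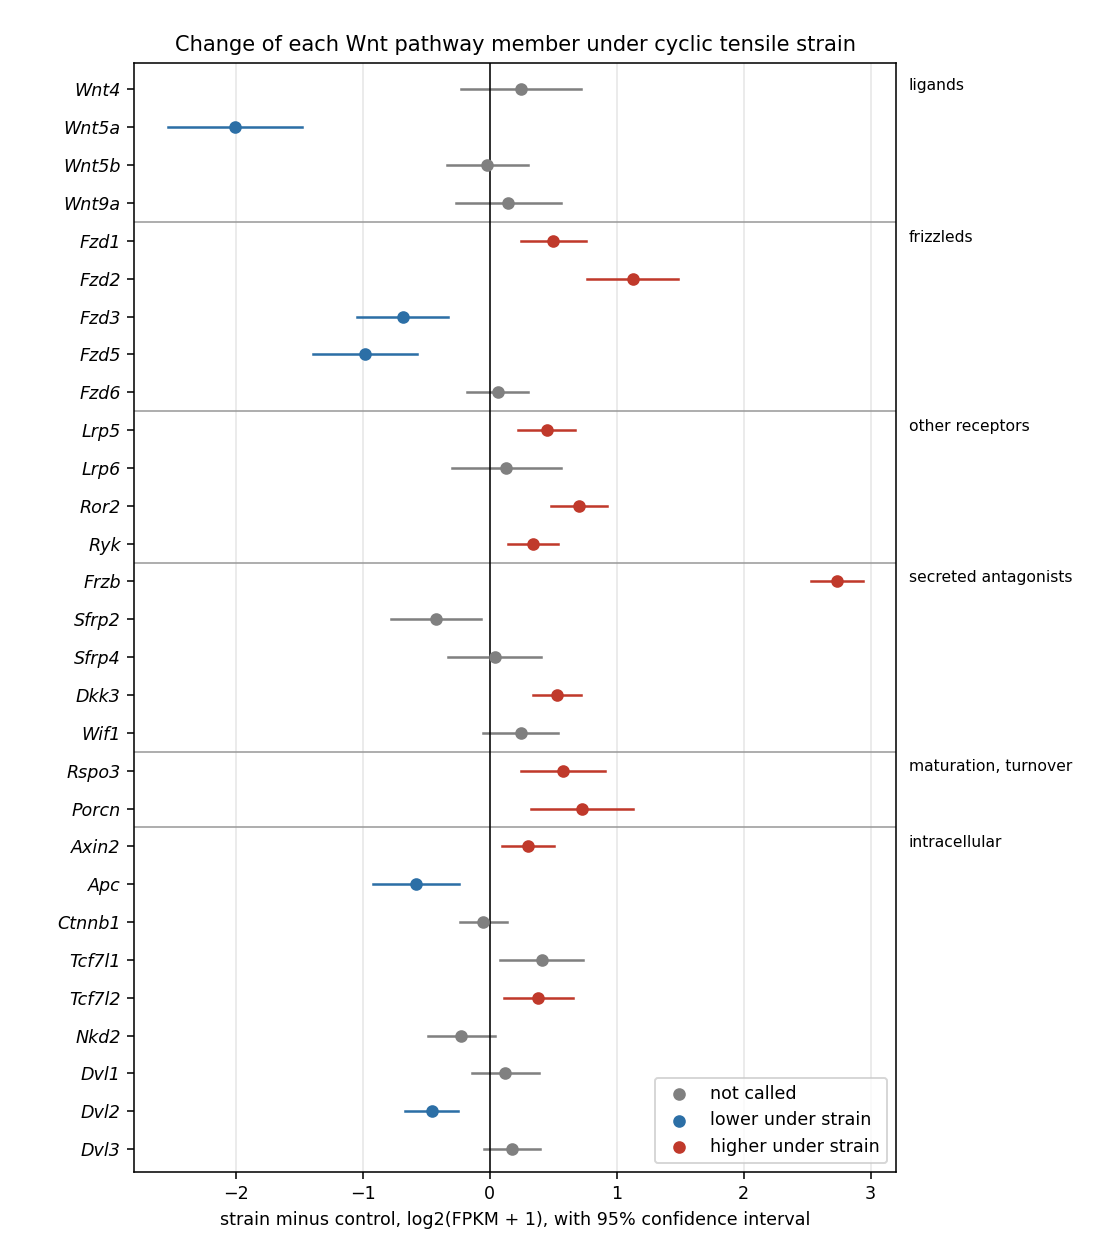
Log2 fold change of the 29 tested members (strain minus control, log2(FPKM + 1) scale, points) with 95% confidence intervals from limma (lines), grouped by role. Frzb lies farthest to the right (2.74) and Wnt5a farthest to the left (-2.01), while the interval of Ctnnb1 spans 0.

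Wnt5a, the ligand best known for beta-catenin-independent signalling, was the only ligand member above 3 FPKM in any library and the only tested ligand that was called. It was at 16.0, 9.78 and 7.59 FPKM in strain replicates 1 to 3, against 44.0, 41.1 and 53.2 FPKM in the controls. The highest strain library lay far under the lowest control, and the log2 fold change was -2.01 ± 0.23 (SE, limma adjusted p = 0.00043). Wnt5a made up 83.5%, 68.5% and 53.9% of the summed FPKM of the 12 ligands in the strain libraries and 89.9% to 93.2% in the controls. The summed ligand level was 14.1 to 19.2 FPKM under strain and 45.8 to 57.1 FPKM in controls. Without Wnt5a the sum was 3.16, 4.49 and 6.50 FPKM in the strain libraries and 3.85 to 4.63 FPKM in the controls, so the strain libraries lay on either side of the controls.

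The other tested ligands were not called, and their intervals allow sizeable changes either way. Wnt4, a ligand of kidney and gonad development, was at 0.694, 1.17 and 2.19 FPKM under strain and 0.727, 1.01 and 1.03 FPKM in controls (log2 fold change 0.24, 95% interval -0.23 to 0.72). Wnt9a, a ligand of joint formation, was at 0.898, 1.90 and 2.14 FPKM under strain and 1.21 to 1.55 FPKM in controls (interval -0.27 to 0.56). Strain replicate 1 was the lowest library for both genes and strain replicate 3 the highest. Wnt5b, the close paralog of Wnt5a, was at 1.22 to 1.905 FPKM under strain and 1.26 to 1.89 FPKM in controls (interval -0.34 to 0.30). Among the ligands under the filter, Wnt2b was at 0.0549 to 0.0973 FPKM under strain and 0.122 to 0.247 FPKM in controls, without overlap. Wnt10b (0.0508 to 0.152 FPKM under strain, 0.0242 to 0.0514 FPKM in controls) and Wnt11 (0.0462 to 0.0776 FPKM under strain, 0 to 0.0313 FPKM in controls) lay in the same low range. The groups overlapped for Wnt10b, and for Wnt11 the strain libraries lay above the controls. None of these ligands was called without a filter. Wnt2, Wnt6, Wnt7b and Wnt10a were listed at 0 in each strain library and at or under 0.124 FPKM in controls, and Wnt16 was at or under 0.0271 FPKM throughout.

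**Figure D2:**
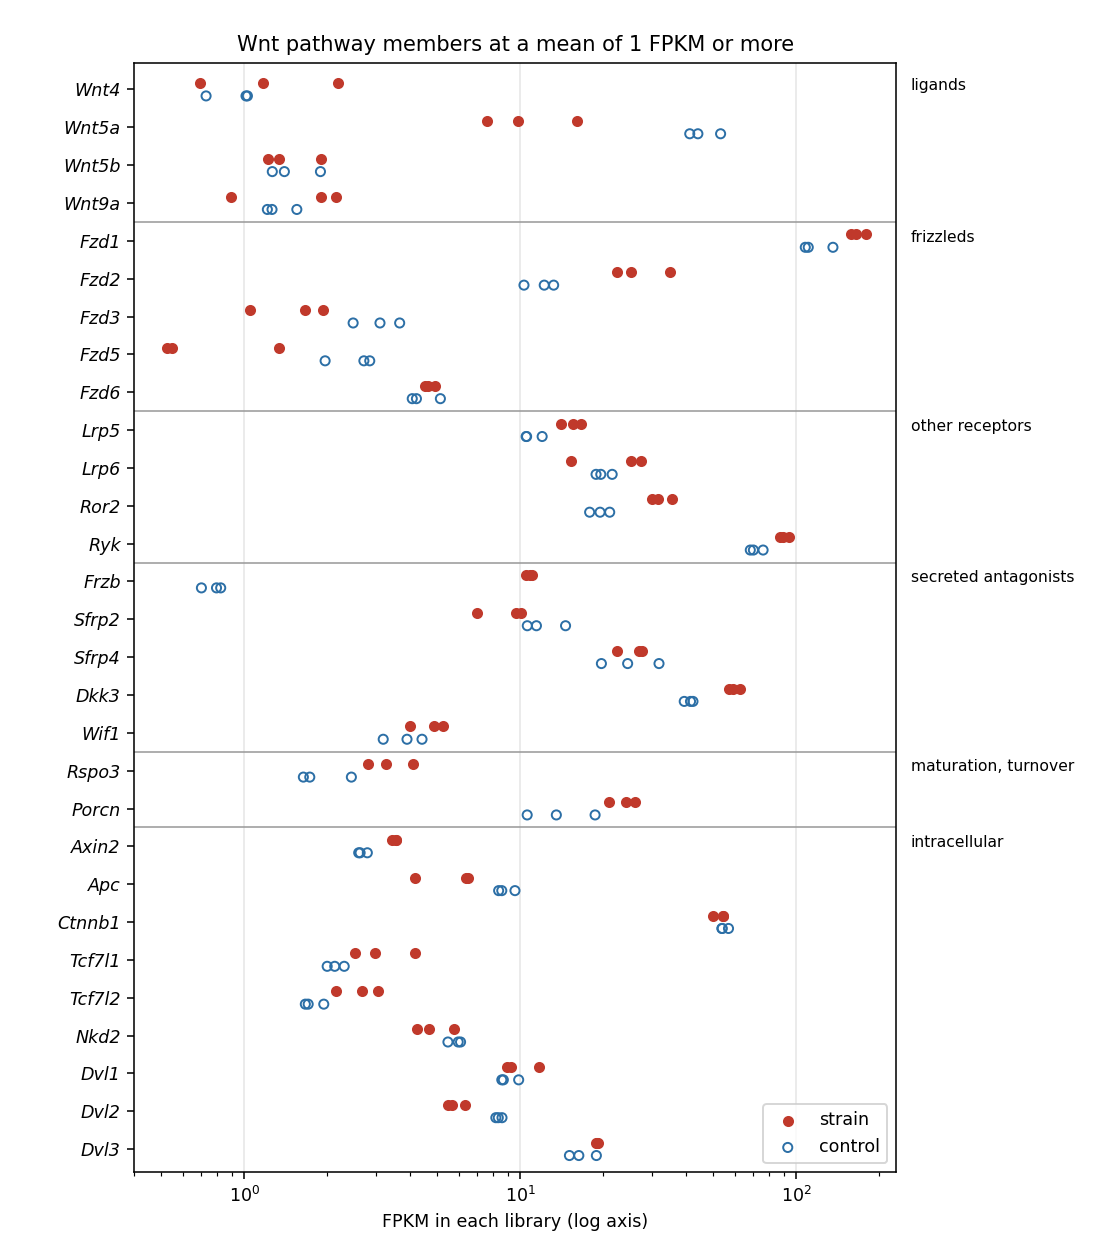
FPKM of the 29 tested members in each library (log axis), strain libraries as filled red points and control libraries as open blue points, grouped by role. Fzd1 has the highest level of all, at 157 to 179 FPKM under strain and 108 to 136 FPKM in controls, and the Wnt5a and Frzb groups lie far apart in opposite directions.

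The frizzleds, the cell-surface receptors of Wnt ligands, split into members that rose and members that fell. Fzd1 was at 179, 164 and 157 FPKM under strain, against 108, 136 and 111 FPKM in controls, and rose 1.41-fold (log2 fold change 0.50 ± 0.11 SE, adjusted p = 0.0090). It made up 78.8% to 85.4% of summed frizzled FPKM under strain and 82.3% to 85.8% in controls. Fzd2 was at 22.5, 25.3 and 34.8 FPKM under strain, against 10.3, 13.2 and 12.2 FPKM in controls, a 2.31-fold rise (1.12 ± 0.16, adjusted p = 0.00089). Its share of the sum was 10.7% to 17.4% under strain and 7.98% to 9.09% in controls. The summed level of the 10 frizzleds was 199 to 210 FPKM under strain and 129 to 158 FPKM in controls.

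Fzd3, a receptor of planar polarity and axon growth, fell to 1.66, 1.93 and 1.05 FPKM under strain, against 3.66, 2.48 and 3.10 FPKM in controls (-0.69 ± 0.16, adjusted p = 0.010). Fzd5, which can bind Wnt5a, fell to 0.549, 1.33 and 0.525 FPKM under strain, against 2.85, 1.96 and 2.71 FPKM in controls (-0.98 ± 0.18, adjusted p = 0.0035). With a pseudocount of 0.1 the log2 fold change of Fzd5 was -1.63. Fzd6, a receptor of tissue polarity, averaged 4.69 ± 0.212 FPKM under strain and 4.47 ± 0.583 FPKM in controls (SD, n = 3 each) and was not called, with a 95% interval of -0.18 to 0.30. Fzd4, which also serves the ligand norrin, was under the filter at 0.750, 0.912 and 0.884 FPKM under strain and 0.260, 0.264 and 0.233 FPKM in controls. Limma without a filter called Fzd4 higher (adjusted p = 0.0022), and Fzd8 too, at 0.251 to 0.438 FPKM under strain and 0.098 to 0.194 FPKM in controls (adjusted p = 0.037). Fzd7 (0.0117 to 0.0484 FPKM under strain, 0 to 0.0482 FPKM in controls) and Fzd9 (0.128 to 0.366 FPKM under strain, 0.0923 to 0.277 FPKM in controls) overlapped.

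Of the 4 tested co-receptors and alternative receptors, 3 rose, where 16.4% of all tested genes did. Ror2, the receptor tyrosine kinase that takes up Wnt5a, was at 30.1, 31.5 and 35.4 FPKM under strain, against 17.9, 21.1 and 19.5 FPKM in controls (log2 fold change 0.70 ± 0.10, adjusted p = 0.00089). Its level and that of Wnt5a thus moved in opposite directions in the same libraries. Ror1, its paralog, lay under the filter at 0.849, 1.05 and 0.736 FPKM under strain and 0.357, 0.490 and 0.529 FPKM in controls, and limma without a filter called it higher (adjusted p = 0.032). Ryk, a Wnt receptor with an inactive kinase domain, was at 89.9, 87.6 and 94.1 FPKM under strain, against 70.0, 75.9 and 68.2 FPKM in controls (0.34 ± 0.09, adjusted p = 0.014). The call of Ryk was lost without control replicate 1 (adjusted p = 0.062) and without control replicate 3 (adjusted p = 0.063). It lay between 0.0021 and 0.063 over 14 alternatives.

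The co-receptors of beta-catenin signalling differed in how well their libraries held together. Lrp5 was at 14.0, 15.6 and 16.6 FPKM under strain, against 10.5, 10.5 and 12.01 FPKM in controls, and rose 1.40-fold (0.45 ± 0.10, adjusted p = 0.0081). Lrp6 was at 25.3, 27.3 and 15.2 FPKM under strain, against 18.8, 19.6 and 21.5 FPKM in controls. Strain replicates 1 and 2 lay above the controls and strain replicate 3 below them, and Lrp6 was not called (0.13 ± 0.19, adjusted p = 0.62). Without strain replicate 3 its log2 fold change was 0.38 (adjusted p = 0.013; 0.013 to 0.95 over 14 alternatives). Summed over the 5 genes, the level was 160 to 163 FPKM under strain and 118 to 128 FPKM in controls.

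Frzb, a secreted frizzled-related protein first known from cartilage, had the largest absolute log2 fold change of the 29 tested members. It was at 10.8, 10.5 and 11.1 FPKM under strain, against 0.822, 0.700 and 0.794 FPKM in controls (log2 fold change 2.74 ± 0.09, adjusted p = 1.59e-06). The strain libraries agreed closely with each other, including strain replicate 3. Its share of the summed FPKM of the 9 antagonists was 9.76% to 9.89% under strain and 0.771% to 1.04% in controls. Dkk3, a dickkopf family member that does not bind LRP6 as Dkk1 does, had the highest level of the antagonists, at 57.1, 58.9 and 62.8 FPKM under strain, against 39.3, 42.3 and 41.4 FPKM in controls (0.53 ± 0.08, adjusted p = 0.0015).

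The remaining antagonists were not called or lay near 0. Sfrp4 was at 27.0, 22.5 and 27.7 FPKM under strain, within the control range of 19.7 to 31.8 FPKM (95% interval -0.33 to 0.41). Sfrp2 was at 9.65, 10.03 and 6.95 FPKM under strain, against 14.6, 11.5 and 10.6 FPKM in controls, without overlap but not called (-0.42 ± 0.16, adjusted p = 0.061). Wif1, a secreted protein that binds Wnt ligands directly, was at 3.99 to 5.25 FPKM under strain and 3.19 to 4.41 FPKM in controls (0.24 ± 0.13, adjusted p = 0.18). Sfrp1, under the filter, was at 0.268, 0.162 and 0.114 FPKM under strain and 0.0211, 0.0319 and 0.0645 FPKM in controls, and limma without a filter called it higher (adjusted p = 0.040). Fzd4, Fzd8, Ror1 and Sfrp1 were the 4 members under the filter that were called in this way, all higher, where 5.53% of all 5972 genes with a value but under the filter were called higher. Dkk2 had a value in strain replicate 3 alone (0.0571 FPKM), and Dkk1, the antagonist of LRP6 most often studied in bone, was listed at 0 beside Sfrp5.

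**Figure D3:**
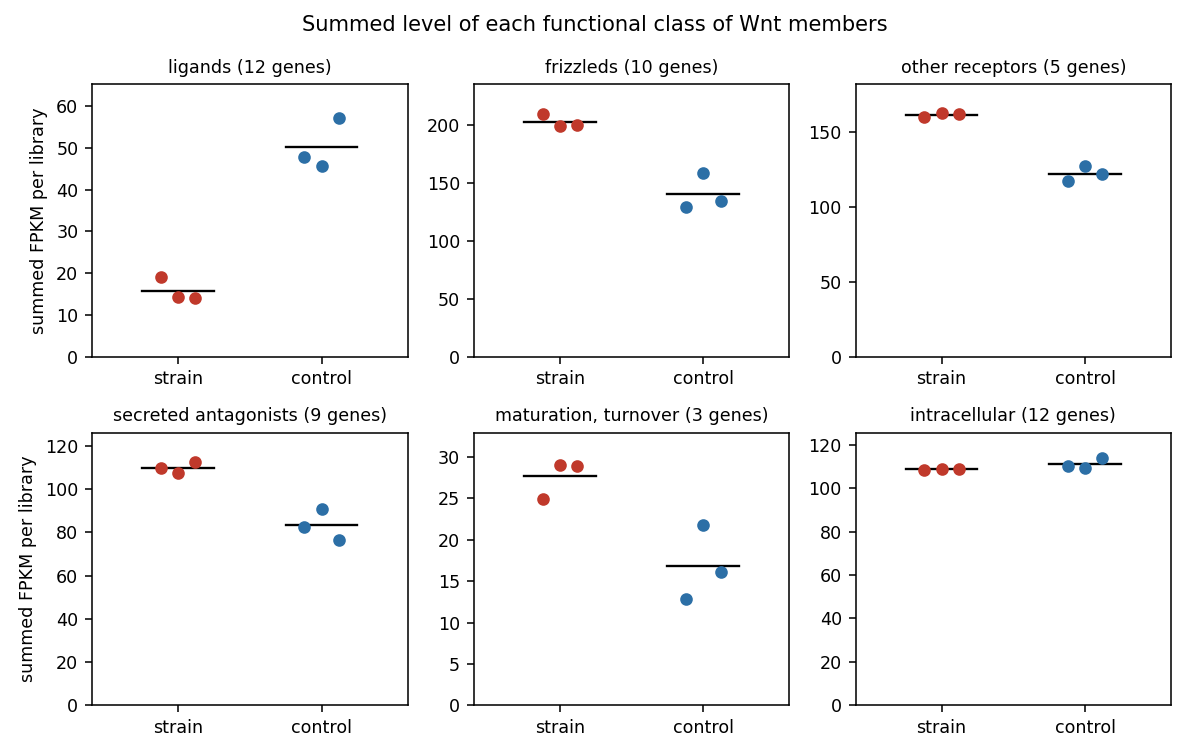
Summed FPKM of each functional class in each library (points) with the group mean (line), strain left of control, each axis starting at 0. Ligands are lower under strain (14.1 to 19.2 against 45.8 to 57.1 FPKM), frizzleds, other receptors and antagonists are higher, and the 12 intracellular genes sum to 108 to 109 FPKM under strain and 109 to 114 FPKM in controls.

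Of the ligand maturation and receptor turnover members, Porcn and Rspo3 were tested and rose, each with a call that did not hold without some libraries. Porcn, the acyltransferase that attaches the lipid to Wnt ligands, was at 21.0, 24.3 and 26.0 FPKM under strain, against 10.6, 18.7 and 13.5 FPKM in controls (log2 fold change 0.73 ± 0.18, adjusted p = 0.013). Its call was lost without strain replicate 3 (adjusted p = 0.054; 0.0024 to 0.054 over 14 alternatives). Wls, the carrier that takes the acylated ligand to the cell surface, rose 1.64-fold, to 58.4, 61.6 and 60.2 FPKM under strain, against 32.9, 42.3 and 34.4 FPKM in controls (0.71 ± 0.11, adjusted p = 0.0012). Of the 9 genes listed as other ligands and their secretion, Wls was the 1 tested. Wnt1, Wnt3, Wnt3a, Wnt8a, Wnt8b and Wnt9b were listed at 0 in each library, and Wnt7a was at 0 under strain and at or under 0.0667 FPKM in controls. Notum, the enzyme that removes the lipid again, was listed at 0 in each strain library and at 0.112, 0.129 and 0.0696 FPKM in controls, and limma without a filter called it lower (adjusted p = 0.0097).

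R-spondins hold frizzleds at the surface by drawing the ligases ZNRF3 and RNF43 to LGR receptors. Rspo3 was at 3.26, 4.09 and 2.81 FPKM under strain, against 1.64, 2.44 and 1.73 FPKM in controls (0.58 ± 0.15, adjusted p = 0.015). Without strain replicate 2 or control replicate 1 its adjusted p was 0.050 and 0.061 (0.0082 to 0.061 over 13 alternatives). All 3 tested genes of the R-spondin list rose, where 16.4% of all tested genes did. They were Rspo1, which rose to 3.84, 4.94 and 5.73 FPKM under strain, against 1.15, 2.12 and 2.43 FPKM in controls (1.03 ± 0.19, adjusted p = 0.0034), and the receptor genes Lgr5 and Lgr4. Lgr5 averaged 32.7 ± 4.34 FPKM under strain and 15.7 ± 0.970 FPKM in controls (SD, n = 3 each; adjusted p = 0.00025 by limma), and Lgr4 averaged 10.1 ± 1.36 FPKM under strain and 6.49 ± 0.804 FPKM in controls (adjusted p = 0.0082). Rnf43, under the filter, was at 0.587, 0.673 and 0.532 FPKM under strain and 0.236 to 0.244 FPKM in controls, and was called higher without a filter (adjusted p = 0.0058). Rspo4, also under it, was at 0 to 0.0371 FPKM under strain and 0.322 to 0.583 FPKM in controls, and was called lower without a filter (adjusted p = 0.0035). Rspo2 was at 0.0405 to 0.0585 FPKM under strain and 0.0368 to 0.0601 FPKM in controls. Znrf3 was at 0.633, 0.732 and 0.121 FPKM under strain and 0.556 to 0.819 FPKM in controls, with strain replicate 3 far under the rest.

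**Figure D4:**
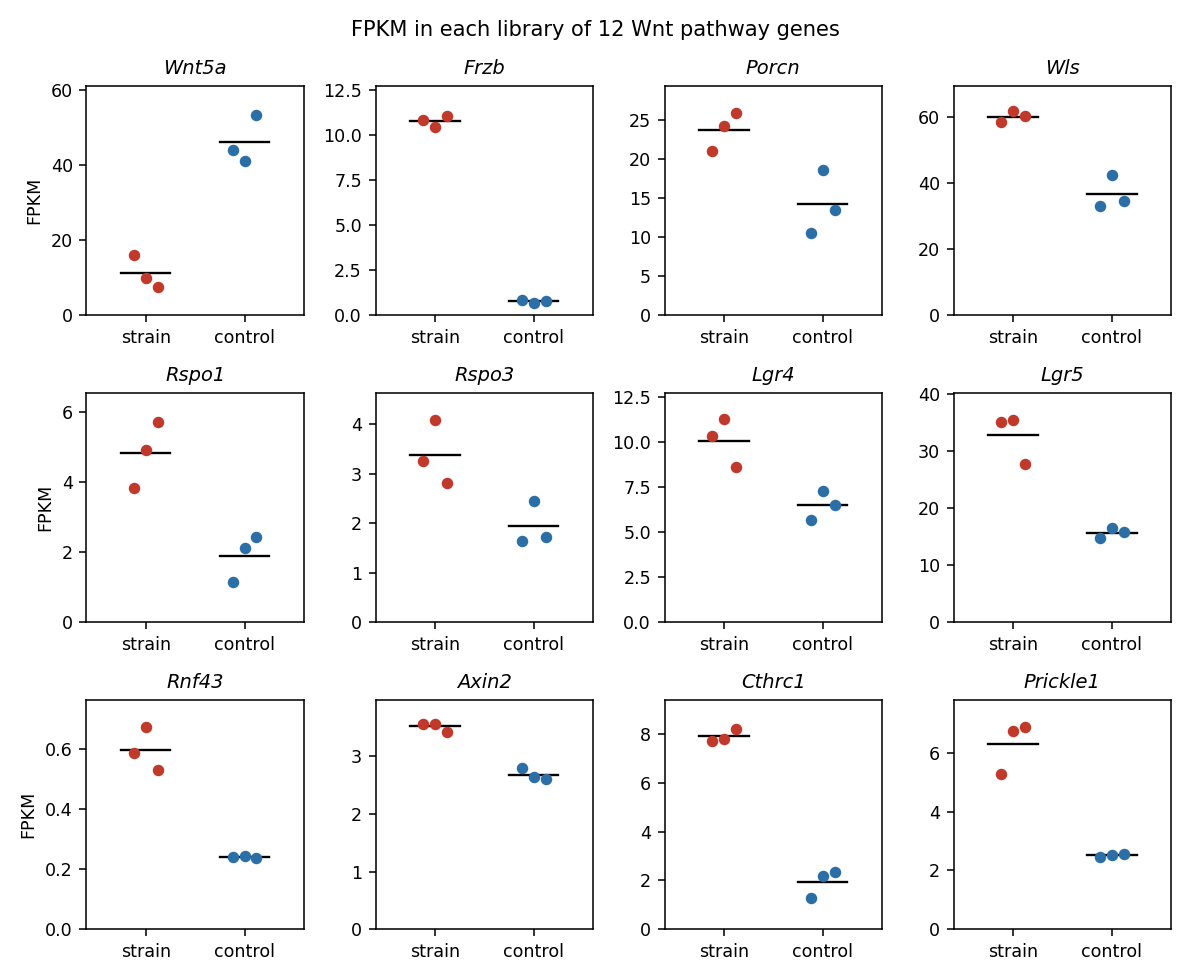
FPKM of 12 Wnt pathway genes in each library (points) with the group mean (line), strain left of control, each axis starting at 0; the genes were picked after their values were seen. In Wnt5a each strain library is under the controls (7.59 to 16.0 against 41.1 to 53.2 FPKM), and in the other 11 genes each strain library is above them.

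Inside the cell, the transcript of beta-catenin itself was not called. Of the 9 tested intracellular members 4 were called (44.4%), where 35.4% of all tested genes were. Ctnnb1, which encodes beta-catenin, averaged 52.9 ± 2.46 FPKM under strain and 54.9 ± 1.72 FPKM in controls (SD, n = 3 each), with a log2 fold change of -0.05 and a 95% interval of -0.24 to 0.13. Apc, the scaffold of the destruction complex, fell to 6.37, 6.44 and 4.14 FPKM under strain, against 8.35, 8.57 and 9.57 FPKM in controls (-0.58 ± 0.15, adjusted p = 0.015). Without control replicate 3 its adjusted p was 0.053 (0.012 to 0.053 over 14 alternatives). Of 3 dishevelled genes, which pass the signal on from frizzleds, Dvl2 fell to 5.65, 5.49 and 6.33 FPKM under strain, against 8.16, 8.33 and 8.59 FPKM in controls (-0.46 ± 0.09, adjusted p = 0.0052). Dvl1 (9.27, 8.94 and 11.7 FPKM under strain and 8.58, 8.69 and 9.87 FPKM in controls) and Dvl3 (18.8 to 19.1 FPKM under strain and 15.1 to 18.9 FPKM in controls) were not called, with intervals of -0.14 to 0.39 and -0.05 to 0.39.

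Axin2, a feedback inhibitor widely used as a readout of beta-catenin activity, was at 3.56, 3.56 and 3.43 FPKM under strain, against 2.79, 2.63 and 2.60 FPKM in controls. The groups did not overlap and the rise was small (log2 fold change 0.30 ± 0.09, adjusted p = 0.031). Its call was lost without strain replicate 1 (adjusted p = 0.086), strain replicate 2 (0.091), control replicate 1 (0.071), control replicate 2 (0.073) or control replicate 3 (0.089). It was also lost when replicate number was fitted as a block. Over 13 alternatives the adjusted p of Axin2 was 0.017 to 0.091, while its log2 fold change stayed at 0.28 to 0.38. Nkd1, another feedback inhibitor, was at 0.127, 0.190 and 0.178 FPKM under strain and 0.0764, 0.0860 and 0.102 FPKM in controls, without overlap but not called without a filter (adjusted p = 0.061). Its paralog Nkd2 was at 4.68, 4.22 and 5.74 FPKM under strain, against 6.08, 5.96 and 5.47 FPKM in controls (-0.23 ± 0.12, adjusted p = 0.16). Without strain replicate 3 Nkd2 had a log2 fold change of -0.33 (adjusted p = 0.031; 0.031 to 0.43 over 14 alternatives).

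Among the TCF and LEF factors, Tcf7l2 was at 2.15, 2.68 and 3.06 FPKM under strain, against 1.67, 1.94 and 1.71 FPKM in controls (0.38 ± 0.12, adjusted p = 0.034). That call was lost without strain replicate 2 (adjusted p = 0.089), strain replicate 3 (0.080), control replicate 1 (0.106) or control replicate 3 (0.089), and without a filter (0.053; 0.018 to 0.106 over 13 alternatives). Tcf7l1, mostly a repressor, was at 2.52, 2.98 and 4.17 FPKM under strain, against 1.998, 2.13 and 2.30 FPKM in controls, and missed the threshold (0.41 ± 0.14, adjusted p = 0.054). It passed without strain replicate 1 (0.023), and with libraries rescaled to the same sum or centred on their median (0.030 and 0.032; 0.023 to 0.15 over 13 alternatives). Tcf7 was under the filter at 0.706, 0.979 and 1.06 FPKM under strain and 0.627 to 0.658 FPKM in controls. Its groups did not overlap, but limma without a filter did not call it (adjusted p = 0.14). Lef1 was at or under 0.141 FPKM throughout.

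Promoter sequence is shown for Wnt5a and Frzb, the members with the largest fall and rise, and for Axin2 and Nkd1. In these last, CTTTGAT, a form of the TCF/LEF core motif, was found. Other forms of the motif were not searched. Each line gives the 250 bases before the RefSeq start site in GRCr8, 5′ to 3′ on the gene's strand, with CTTTGAT in capitals. The windows are chr16:3703415-3703664 (plus strand) for Wnt5a, chr3:85772097-85772346 (minus) for Frzb, chr10:94398535-94398784 (plus) for Axin2 and chr19:34722847-34723096 (minus) for Nkd1.
Wnt5a: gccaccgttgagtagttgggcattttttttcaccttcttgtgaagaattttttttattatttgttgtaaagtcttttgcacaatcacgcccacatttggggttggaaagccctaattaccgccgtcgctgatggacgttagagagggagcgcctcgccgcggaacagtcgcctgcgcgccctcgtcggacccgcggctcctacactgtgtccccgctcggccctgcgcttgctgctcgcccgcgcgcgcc
Frzb: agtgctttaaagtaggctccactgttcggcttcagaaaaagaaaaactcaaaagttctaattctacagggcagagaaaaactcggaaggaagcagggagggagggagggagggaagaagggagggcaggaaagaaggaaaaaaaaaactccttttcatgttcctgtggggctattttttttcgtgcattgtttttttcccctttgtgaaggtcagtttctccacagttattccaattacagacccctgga
Axin2: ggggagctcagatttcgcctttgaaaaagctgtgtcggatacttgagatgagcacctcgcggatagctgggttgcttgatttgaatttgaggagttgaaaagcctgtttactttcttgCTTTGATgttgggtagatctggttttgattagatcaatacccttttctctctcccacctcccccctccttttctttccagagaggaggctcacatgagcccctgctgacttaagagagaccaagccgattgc
Nkd1: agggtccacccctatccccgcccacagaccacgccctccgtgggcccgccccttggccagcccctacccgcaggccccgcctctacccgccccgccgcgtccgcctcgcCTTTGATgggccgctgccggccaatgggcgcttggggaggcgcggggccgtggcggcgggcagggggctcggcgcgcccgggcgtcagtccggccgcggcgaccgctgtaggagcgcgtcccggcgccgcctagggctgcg
The letters CTTTGAT, or ATCAAAG on the other strand, started at position -132 in Axin2 and -141 in Nkd1. They stood in 2 of 38 members with a promoter in the RefSeq table, and in 3.15% of all 33469 promoter windows of the same length. The letters were not in the Wnt5a and Frzb windows, whose GC content was 57.2% and 43.6%.

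The lists of other pathway genes held 85 genes, of which 84 were in the files and 54 were tested; 18 rose and 10 fell, and their median log2 fold change was 0.15, where 16.4% of all tested genes rose, 19.0% fell and the median was -0.01. Of the 30 untested genes in the files, 12 were listed at 0 in each library and could not be fitted. When the filter was dropped, limma called 3 of the rest higher (Rnf43, Ephb2 and Gbx2) and 3 lower (Notum, Rspo4 and Musk). Of all 5972 genes with a value but under the filter, 5.53% were called higher and 5.76% lower. Among the 6 tested secreted or membrane regulators 3 rose: Cthrc1, a secreted protein that favours the Wnt5a to ROR2 branch, Tmem88, an inhibitor of dishevelled, and Gpc4, a heparan sulfate carrier. Cthrc1 was at 7.72, 7.81 and 8.19 FPKM under strain, against 1.29, 2.19 and 2.35 FPKM in controls (log2 fold change 1.62 ± 0.15, adjusted p = 0.00010). Tmem88 was at 1.57 to 1.75 FPKM under strain and 0.234 to 1.05 FPKM in controls (adjusted p = 0.0092). Gpc4 averaged 42.7 ± 1.81 FPKM under strain and 35.3 ± 1.31 FPKM in controls (SD, n = 3 each). Its call (limma adjusted p = 0.030) was lost without strain replicate 1 (0.053), strain replicate 2 (0.075), control replicate 1 (0.104) or control replicate 3 (0.101; 0.0062 to 0.104 over 14 alternatives). It was also lost when replicate number was fitted as a block.

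The destruction complex list had 1 rise and 2 falls among 13 tested genes, or 23.1% called, against 35.4% of all tested genes. Dact3, a dishevelled antagonist, rose to 10.1, 11.6 and 14.2 FPKM under strain, against 5.08, 5.94 and 6.88 FPKM in controls (0.90 ± 0.14, adjusted p = 0.0015). Fbxw11, which helps mark beta-catenin for destruction, fell to 10.8 to 12.3 FPKM under strain, against 16.5 to 17.3 FPKM in controls (-0.54 ± 0.09, adjusted p = 0.0018). Csnk1e, a casein kinase gene, fell to 11.0 to 13.4 FPKM under strain, against 14.5 to 15.8 FPKM in controls. That call (adjusted p = 0.032) was lost without strain replicate 1 (0.078), strain replicate 2 (0.114), control replicate 1 (0.110) or control replicate 3 (0.091), and with quantile normalization (0.057) or centring on the median (0.056; 0.010 to 0.114 over 14 alternatives). The kinase gene Gsk3b averaged 11.2 ± 1.45 FPKM under strain and 13.8 ± 0.238 FPKM in controls, without overlap but not called (limma adjusted p = 0.066).

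Among 12 tested nuclear partners of beta-catenin 3 rose and 1 fell, or 33.3% called, near the 35.4% of all tested genes. The antagonist Cby1 averaged 9.06 ± 1.56 FPKM under strain and 5.38 ± 0.324 FPKM in controls, the corepressor Tle3 7.14 ± 0.565 FPKM under strain and 4.93 ± 0.250 FPKM in controls, and the coactivator Bcl9l 23.2 ± 0.264 FPKM under strain and 17.2 ± 0.751 FPKM in controls (SD, n = 3 each; adjusted p = 0.0038, 0.0066 and 0.0042 by limma). The corepressor Tle4 fell to 1.83, 2.19 and 1.86 FPKM under strain, against 3.64, 3.50 and 3.23 FPKM in controls (-0.59 ± 0.10, adjusted p = 0.0023).

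Planar polarity and other beta-catenin-independent genes had 4 rises and 3 falls among 10 tested, or 70% called, against 35.4% of all tested genes. The polarity gene Prickle1 rose 2.50-fold, to 5.26, 6.74 and 6.87 FPKM under strain, against 2.46, 2.53 and 2.56 FPKM in controls (1.04 ± 0.11, adjusted p = 0.00023). Rhou fell to 4.33, 3.75 and 3.40 FPKM under strain, against 18.1, 12.5 and 15.5 FPKM in controls (-1.75 ± 0.14, adjusted p = 6.13e-05). Daam1, a formin that binds dishevelled, fell to 2.04 to 3.18 FPKM under strain, against 5.17 to 6.30 FPKM in controls (adjusted p = 0.0012). Its paralog Daam2 rose to 4.04 to 4.29 FPKM under strain, against 2.32 to 2.82 FPKM in controls (adjusted p = 0.0032). The kinase Nlk fell to 3.64 to 4.36 FPKM under strain, against 6.46 to 6.82 FPKM in controls (adjusted p = 0.0021). The other rises were Prickle2 (adjusted p = 0.028), lost without strain replicate 1 (0.083), strain replicate 2 (0.093), control replicate 1 (0.109) or control replicate 3 (0.057; 0.017 to 0.109 over 13 alternatives), and the ROR2 partner Ptk7 (adjusted p = 0.013), lost without control replicate 1 (0.057; 0.0046 to 0.057 over 14 alternatives). The call of Prickle2 was also lost when replicate number was fitted as a block.

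Genes often named as Wnt targets moved apart, with 3 rises and 4 falls among 9 tested (77.8% called, against 35.4% of all tested genes). Wisp2 rose to 27.7, 35.0 and 41.0 FPKM under strain, against 5.72, 9.65 and 5.06 FPKM in controls (2.21 ± 0.22, adjusted p = 0.00017), and Ephb3 and Twist1 were the other rises. Under the filter, Gbx2 was at 1.29, 1.695 and 2.18 FPKM under strain and 0.171 to 0.204 FPKM in controls (adjusted p = 0.0017 by limma without a filter), and Ephb2 at 0.254 to 0.339 FPKM under strain and 0.0148 to 0.130 FPKM in controls (adjusted p = 0.0089). The call of Twist1 (adjusted p = 0.016) was lost without control replicate 1 (0.060; 0.0048 to 0.060 over 14 alternatives). The cyclin gene Ccnd1 fell to 52.4 to 54.4 FPKM under strain, against 87.1 to 127 FPKM in controls (-1.01 ± 0.13, adjusted p = 0.00062). The AP-1 genes Fosl1 and Jun fell by 1.58 and 1.29 on the log2 scale (adjusted p = 0.00034 and 0.00040), and the adhesion receptor gene Cd44 was the fourth fall. Each of these targets also answers to pathways other than Wnt. In the same libraries Axin2 rose, with a call lost in 6 of 13 alternatives, and Ccnd1 fell, with its call kept in all 14.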

How the data were processed

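The authors deposited 1 file per library with 1 FPKM value per gene symbol (22601 rows). The unit was taken from the values and from the tools named, with no role or order, in the submitters' processing notes: cutadapt 1.9.3, HISAT2 2.0.4, Cufflinks, Cuffdiff 2.2.1 and DESeq. Those notes name the human build hg19 although the symbols are rat ones, so no coordinates of measured genes were used; promoters came from RefSeq (GRCr8). How fragments shared by near-identical family members were assigned is not given in the sources used here. Only 2.40% to 12.7% of low values (0.003 to 0.06 FPKM) lay within 0.01 log2 units of the modal ratio of their library pair, so whole reads could not be recovered and depth is unknown. A value of 0 may be a failed estimate.

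Left out were 27 rows whose symbol had become a date and 1 malformed row. The 10180 genes that averaged 1 FPKM or more were tested as log2 values with a pseudocount of 1, a scale that understates the change of low genes; ratios of means are given only where both reach 1 FPKM. Strain was compared with control by limma 3.58.1 (R 4.3.3), with an intensity trend, robust moderation, two-sided tests and Benjamini-Hochberg adjustment over all tested genes. The fit was first run on simulated independent normal values with 200 of 10180 genes changed, far fewer than were called in the data. It recovered 33.8% of changes of 0.5 log2 units and 84.6% of changes of 1, with 4.12% of calls false. The Benjamini-Hochberg threshold is stricter when so few genes change, so these shares do not give the recovery in the data. How many changes near 0.5 went uncalled there is unknown. Members under the filter were called only in the fit without a filter. Of the called Wnt genes, 4 averaged under 1 FPKM in 1 group and reached the filter through the other. They were Frzb, Tmem88 and Ephb3 (control means 0.772, 0.622 and 0.864 FPKM) and Fzd5 (strain mean 0.802 FPKM). Each was also called in the fit without a filter.

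The members and gene lists were chosen with earlier results of these data known. The markers Ca3 and Ca12 were matched as Car3 and Car12, their rat symbols in RefSeq. Every member is named. Of each list of other pathway genes, called genes are counted and up to 4 with the largest absolute log2 fold change are given with values. Daam2, Ptk7, Prickle2, Ephb3, Twist1, Cd44, Gsk3b, Notum, Rnf43, Rspo2, Rspo4, Gbx2, Ephb2, Musk and the ligands at 0 fall outside this rule and were chosen after their values were seen. Alternatives were a pseudocount of 0.1, no filter, a filter at 5 FPKM, 3 other scalings, no robust moderation, a replicate block and leaving out each library; applying them to the other pathway genes was added after seeing the data.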

Additional observations from a re-analysis of the deposited data

How the results depend on the processing

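No tested member changed sign while called in any of the 14 alternatives. Of 16 called members 10 kept their call in each alternative in which they were tested: Wnt5a, Fzd1, Fzd2, Fzd3, Fzd5, Lrp5, Ror2, Frzb, Dkk3 and Dvl2. The other 6 lost it at least once, and 4 members gained 1 (Lrp6, Sfrp2, Tcf7l1 and Nkd2). Of 395 alternative values of tested members, 371 kept their side of the threshold, 17 lost a call and 7 gained one. Leaving out each library in turn gave 2375 to 3576 called genes (3608 with all 6), 7 to 11 members higher, 4 to 6 lower, and a median log2 fold change of the members of 0.14 to 0.26. A filter at 5 FPKM left 18 members, with 8 higher and 3 lower, and 11 other pathway genes higher in place of 18; fewer genes are tested there. The scalings gave 57.2%, 55.5% and 55.4% of all calls higher (equal sums, quantile, median) against 46.3% as deposited, and moved the median of all genes to at most 0.04. The replicate block gave 11 members higher and 6 lower (3116 genes called in all): Sfrp2 (adjusted p = 0.031) and Tcf7l1 (0.044) passed and Axin2 (0.069) did not, nor did the pathway genes Gpc4 (0.067) and Prickle2 (0.055). Same-numbered libraries correlated at 0.033, 0.108 and -0.116 in their deviations from the group means, so the numbers were not taken to pair the samples. Without read totals, the precision of values under 1 FPKM is unknown.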
